A study of Mus musculus with 5 samples.

Results

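The 9 genes described here, Fabp4, Fabp5, Lpl, Gpnmb, Trem2, Spp1, Abca1, Abcg1 and Plin2, serve lipid handling and the foam cell state of arterial macrophages. They were taken by name from the 16498 genes of a single-cell expression table, as genes of this function, with earlier results of these data known. All 9 were in the table, which holds 18260 cells of the mouse aortic arch. Their levels were compared between libraries labelled Apoe-/- and libraries labelled Oasl1-/-Apoe-/- in macrophages, monocyte-like, dendritic-like, endothelial-like and stromal cells.

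The control group (genotype Oasl1+/+Apoe-/- in the labels, called Apoe-/- below) gave 2 libraries and the Oasl1-/-Apoe-/- group gave 3. Both groups lacked Apoe, which raises plasma cholesterol and produces atherosclerosis, and both were kept on normal chow for 28 weeks. Each suspension pooled aortic arches (n = 6 mice, the sources used here not saying whether per library or per group), and live cells were sorted before droplet 3′ sequencing. Oasl1, an interferon-induced gene, had been targeted in the whole animal by removing its promoter and exon 2. Where the Oasl1 reads fall in the gene was not mapped, so the Oasl1 level was not used to check the deletion. In macrophages it was 0.0487 and 0.0573 per 10000 UMIs in the Apoe-/- libraries and 0.565, 0.489 and 0.618 in those labelled Oasl1-/-Apoe-/-, so it was the higher in the latter. The reason was not tested, and every direction given below rests on the labels.

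Foam cells are macrophages of the arterial wall that have taken up more lipoprotein lipid than they export and store the excess as cholesteryl ester in droplets. Uptake, hydrolysis in the lysosome, re-esterification and efflux to lipoproteins are the steps of that cycle, and the liver X receptors and peroxisome proliferator-activated receptors regulate many of its genes. In mouse lesions, macrophages rich in Trem2, Gpnmb, Spp1 and Fabp5 are usually counted as the lipid-laden group, and interferon-responsive macrophages as a separate one.

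Fabp5 (ENSMUSG00000027533, chr3:10012548-10016607, plus strand) and Fabp4 (ENSMUSG00000062515, chr3:10204088-10208576, minus strand) are neighbours on chromosome 3 and encode carriers of fatty acids in the cytoplasm. Lpl (ENSMUSG00000015568, chr8:68880491-68907448, plus) encodes lipoprotein lipase, which frees fatty acids from triglyceride-rich lipoproteins. Trem2 (ENSMUSG00000023992, chr17:48346401-48354147, plus) encodes a lipid-sensing receptor, Gpnmb (ENSMUSG00000029816, chr6:49036546-49070929, plus) a membrane glycoprotein of lysosome-rich macrophages, and Spp1 (ENSMUSG00000029304, chr5:104435118-104441050, plus) the secreted matrix protein osteopontin. Abca1 (ENSMUSG00000015243, chr4:53030787-53159895, minus) and Abcg1 (ENSMUSG00000024030, chr17:31057675-31117988, plus) encode the cholesterol exporters to apolipoprotein A-I and to mature HDL. Plin2 (ENSMUSG00000028494, chr4:86648386-86670060, minus) encodes the coat protein of lipid droplets. Coordinates are those of GENCODE mouse release 21 (mm10). Fabp5 has processed copies elsewhere in the mouse genome that resemble its transcript, so its counts may be split or raised by reads of these copies.

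The promoters of Gpnmb and Spp1 are shown because the levels of these 2 genes moved differently between cell classes. Of the 9 genes, 5 had a promoter entry in the RefSeq table for GRCm38.p6. The 250 bases before the RefSeq transcript start are given 5′ to 3′ on the plus strand, chr6:49036268-49036517 for Gpnmb and chr5:104434861-104435110 for Spp1. For both genes this start lies upstream of the GENCODE gene start given above, and motif distances are counted from the RefSeq start. Capitals mark a match to any of 5 motifs searched on both strands: the E-box CACGTG, the AP-1 motif TGACTCA, the PU.1 motif GAGGAAGT, the interferon response motif (GAAA, any 2 bases, GAAA) and the TATA motif TATAAA.
Gpnmb: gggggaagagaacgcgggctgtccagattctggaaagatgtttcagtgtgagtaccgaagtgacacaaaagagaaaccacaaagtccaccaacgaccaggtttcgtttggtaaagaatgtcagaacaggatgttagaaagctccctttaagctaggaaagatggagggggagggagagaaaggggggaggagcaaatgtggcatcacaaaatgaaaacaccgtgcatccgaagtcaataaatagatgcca
Spp1: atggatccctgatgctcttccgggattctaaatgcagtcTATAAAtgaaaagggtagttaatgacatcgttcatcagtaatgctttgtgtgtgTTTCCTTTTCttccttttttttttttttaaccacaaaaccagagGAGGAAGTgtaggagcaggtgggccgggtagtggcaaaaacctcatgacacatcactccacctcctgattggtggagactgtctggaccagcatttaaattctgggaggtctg
The Gpnmb window held none of the 5. The Spp1 window held the PU.1 motif 113 to 106 bases before the start, the interferon response motif 157 to 148 bases before it and the TATA motif 211 to 206 bases before it. Over the same window of 27025 genes, the share holding each motif was 6.86% for the E-box, 5.16% for AP-1, 2.79% for PU.1, 3.46% for the interferon response motif and 14.3% for TATA. These are matches of letters and not measured sites.

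The libraries held 3212 to 4338 cells and 16959976 to 19813039 UMIs each, with a median of 4495 to 5186.5 UMIs per cell. Levels are given as the mean number of UMIs per 10000 UMIs of a cell (CP10K), averaged over the cells of a class in a library, so the library is the unit of replication. Macrophages were the cells above 2 on the deposited natural log scale (6.39 CP10K) for both C1qa and C1qb, genes of complement C1q. They numbered 2996 (16.4% of cells), 807 from Apoe-/- and 2189 from Oasl1-/-Apoe-/- libraries, and 73.7% of them lay in macrophage-like clusters. The 10 macrophage markers summed to 209 to 232 CP10K in the Apoe-/- and 245 to 249 in the Oasl1-/-Apoe-/- libraries, while 8 of 10 T and NK cell markers were under 0.05 CP10K in every library. The other classes were clusters named by their markers, with the 9 genes left out of the clustering. A set of 165 cell barcodes occurred in more than 1 library.

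Among 8 classes (macrophages and the monocyte-, dendritic-, endothelial-, smooth muscle-, fibroblast-, NK/T- and B-like cells), macrophages had the highest mean level over the 5 libraries of every one of the 9 genes except Fabp4. For Spp1 and Plin2 macrophages were above monocyte-like cells in only 2 of the 5 libraries. Gpnmb, Trem2, Lpl and Abcg1 stood apart there, with every macrophage value above every value of the class ranked next. Gpnmb averaged 13.1 CP10K in macrophages (range 8.26 to 19.95), 2.9 in monocyte-like cells (1.39 to 4.56) and 0.167 in fibroblast-like cells (0.135 to 0.233), then 0.134 in B-like cells (0 to 0.671), 0.0919 in endothelial-like cells (0.0559 to 0.143), 0.0902 in NK/T-like cells (0.0521 to 0.115), 0.0567 in smooth muscle-like cells (0.0232 to 0.104) and 0.0294 in dendritic-like cells (0.0116 to 0.0507). The last 6 of these overlapped each with its neighbour. Trem2 followed the same order at the top, 12.9 in macrophages (11.4 to 15.1), 1.13 in monocyte-like cells (0.973 to 1.41) and 0.281 in fibroblast-like cells (0.167 to 0.421).

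The fatty acid genes were spread more widely. Lpl averaged 5.65 CP10K in macrophages (4.32 to 7.88), 1.39 in fibroblast-like cells (1.08 to 1.99), 0.545 in monocyte-like cells (0.337 to 0.855), 0.237 in endothelial-like cells (0.0511 to 0.459) and 0.0882 in smooth muscle-like cells (0.0737 to 0.106). Fabp5 averaged 29.4 in macrophages (14.5 to 54.6), 16.2 in monocyte-like cells (7.06 to 28.2) and 10.2 in dendritic-like cells (6.75 to 14.3). B-like cells followed at 6.85 (0 to 16.7), ahead of endothelial-like cells at 1.28 (0.864 to 1.73). Fabp4 was different. Its mean was highest in endothelial-like cells, at 6.15 (2.78 to 9.97), followed by smooth muscle-like cells at 2.73 (2.46 to 2.97) and macrophages at 2.18 (0.813 to 4.15), and these 3 ranges overlapped.

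Spp1 and Plin2 were not set apart in macrophages. Spp1 averaged 59.7 CP10K in macrophages (53.7 to 70.9), 53.8 in monocyte-like cells (15.3 to 82.4) and 52.6 in fibroblast-like cells (38.7 to 71.2), and the 3 ranges overlapped. In the 3 Oasl1-/-Apoe-/- libraries it was higher in monocyte-like cells (67.3 to 82.4) than in macrophages (53.7 to 57.0). Among classes not ranked here, the few cartilage-like cells had the most Spp1, at 204 (145 to 294). Plin2 averaged 9.22 in macrophages (7.80 to 11.7) and 9.03 in monocyte-like cells (8.05 to 9.86), against 1.39 in dendritic-like cells (1.0 to 2.01). Of the exporters, Abca1 averaged 1.77 in macrophages (1.4 to 2.46), 1.08 in monocyte-like cells (0.696 to 1.77) and 0.659 in endothelial-like cells (0.509 to 0.836). Abcg1 averaged 1.80 in macrophages (1.74 to 1.95), 1.08 in monocyte-like cells (0.691 to 1.53), 0.877 in dendritic-like cells (0.622 to 1.27) and 0.745 in NK/T-like cells (0.466 to 0.927).

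Between the genotypes, 8 of the 9 genes were lower in macrophages labelled Oasl1-/-Apoe-/- and Abcg1 did not pass the test. Over all 8115 genes tested in macrophages, 4.95% were lower. The falls were led by the fatty acid carriers Fabp5 (3.29-fold) and Fabp4 (3.09-fold) and by Gpnmb (2.21-fold), while Trem2 and Spp1 fell by the least (1.26-fold and 1.2-fold). The median log2 difference of the 9 genes was -0.473, against 0.0461 over all genes tested. Differences are Oasl1-/-Apoe-/- minus Apoe-/- on the log2(mean CP10K + 0.05) scale, with limma's standard error and a Benjamini-Hochberg adjusted p over all genes tested in the class, called at an adjusted p under 0.05.

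Fabp5 was at 46.5 and 54.6 CP10K in the Apoe-/- libraries and at 15.99, 14.5 and 15.3 in the Oasl1-/-Apoe-/- libraries. Its log2 difference was -1.72 ± 0.07 (SE, adjusted p = 1.1e-09), and the groups were far apart relative to their SDs of 5.77 (n = 2) and 0.727 (n = 3). Fabp4 was at 3.16 and 4.15 against 0.813, 1.81 and 0.995, a log2 difference of -1.63 ± 0.23 (adjusted p = 0.00022). The second Oasl1-/-Apoe-/- library was the highest of its group for Fabp4 and still below both Apoe-/- libraries. Lpl was at 6.87 and 7.88 against 4.32, 4.72 and 4.44, a log2 difference of -0.71 ± 0.07 (adjusted p = 1.8e-05) with no overlap.

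Gpnmb was at 19.1 and 19.95 CP10K against 9.16, 8.26 and 8.98, a log2 difference of -1.15 ± 0.06 (adjusted p = 2.7e-08). The lipid receptor Trem2 was at 15.1 and 14.3 against 11.7, 11.8 and 11.4, a log2 difference of -0.34 ± 0.06 (adjusted p = 0.00085). Spp1 was at 70.9 and 61.9 against 57.0, 53.7 and 55.0, a log2 difference of -0.26 ± 0.06 (adjusted p = 0.0066). In none of these 3 genes did the groups overlap, but for Spp1 the Apoe-/- libraries differed from each other by more than the nearer one differed from the Oasl1-/-Apoe-/- libraries. The Spp1 call was lost with limma voom on summed UMIs and with no filter on low genes.

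The droplet coat gene Plin2 was at 10.4 and 11.7 CP10K against 7.98, 7.80 and 8.29, a log2 difference of -0.45 ± 0.07 (adjusted p = 0.0003). Abca1 was at 1.84 and 2.46 against 1.4, 1.53 and 1.65, a log2 difference of -0.47 ± 0.11 (adjusted p = 0.013), and without the second Apoe-/- library the adjusted p was 0.075. Leaving out the first Oasl1-/-Apoe-/- library gave an adjusted p of 0.081, thinning cells to 1000 UMIs 0.075 and no filter 0.074, so this call was lost in each. Abcg1 was at 1.74 and 1.95 against 1.75, 1.75 and 1.79, so the groups overlapped, and its difference of -0.06 ± 0.08 (95% interval -0.25 to 0.12, adjusted p = 0.699) was within the spread. The 2 exporters thus had different calls, but the difference between them was not tested.

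**Figure D1:**
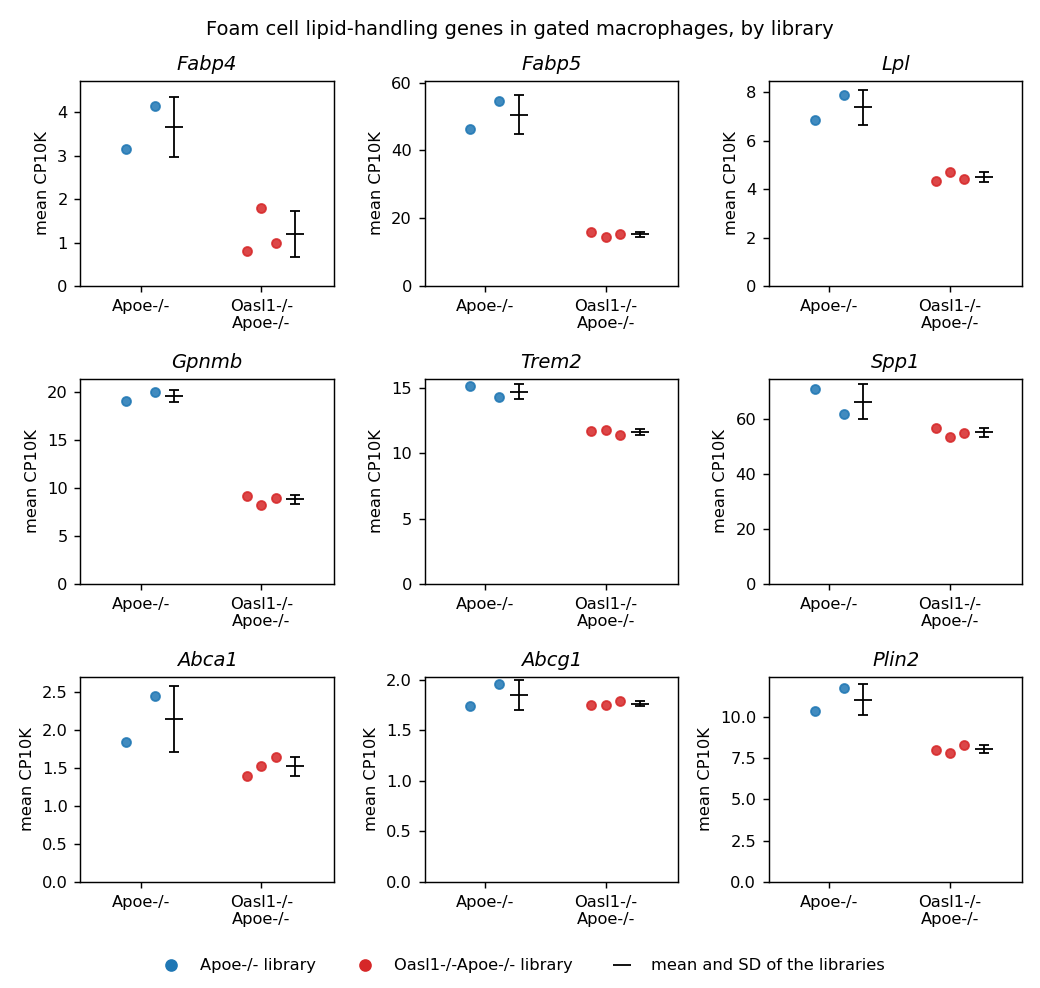
Mean CP10K (vertical axes, from 0) of each of the 9 genes in gated macrophages of the 2 Apoe-/- and 3 Oasl1-/-Apoe-/- libraries, with 1 point per library and the mean and SD beside the points. Groups are apart for every gene but Abcg1, widest for Fabp5 (46.5 and 54.6 against 14.5 to 15.99).

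Centring each library on its median gene moved the share of lower genes among all macrophage calls from 37.9% to 53.1% and left the same 8 of the 9 genes called. Other cell types' markers differed beside these results. In macrophages the 5 erythroid markers, among them haemoglobin genes, summed to 23.9 to 29.2 CP10K in the Apoe-/- and 0.606 to 13.3 in the Oasl1-/-Apoe-/- libraries, and all 5 fell. The 10 smooth muscle markers summed to 14.5 to 18.8 and 9.71 to 14.5 (2 of 8 tested fell), the 10 fibroblast markers to 2.5 to 3.15 and 3.48 to 6.36 (4 of 5 tested rose), and the 10 monocyte markers to 0.811 to 0.872 and 1.91 to 2.22 (3 of 6 tested rose, 1 fell). Their part in the differences of the 9 genes was not tested.

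The falls were also seen as fewer macrophages holding a transcript. With each cell thinned to 1000 UMIs (82 Apoe-/- and 122 Oasl1-/-Apoe-/- macrophages were shallower and left out), a Fabp4 UMI was found in 16.6% of Apoe-/- and 4.40% of Oasl1-/-Apoe-/- macrophages. Unthinned, the shares were 27.3% (220 of 807 cells, 95% Wilson interval 24.3 to 30.4) and 12.4% (271 of 2189, 11.1 to 13.8), at median depths of 5348 and 5432 UMIs. In NK/T-like and B-like cells, which should lack the gene, the thinned shares were 0.738% and 0.756% and the unthinned ones 2.04% and 2.25%, at median depths of 1652 and 1766.5 UMIs. The intervals cover counting error only.

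The thinned share for Fabp5 was 59.6% and 30.3% of macrophages, and 8.12% and 3.78% of NK/T-like and B-like cells (unthinned 8.50% and 6.40%). B-like cells averaged 6.85 CP10K of Fabp5 (0 to 16.7) and NK/T-like cells 0.462 (0.227 to 1.01). For Gpnmb the thinned share was 49.7% and 26.2%, against 0.738% and 0.945% in NK/T-like and B-like cells (unthinned 1.02% and 1.90%). The unthinned shares in macrophages were 71.0% and 46.5% for Fabp5 and 62.6% and 38.8% for Gpnmb, so for these genes the order held at both depths. For Spp1 the thinned shares of macrophages were 48.8% and 42.3% and the unthinned ones 63.1% and 64.0%, which read no order.

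A single macrophage held 3.70 and 3.89 of the 9 genes on average in the Apoe-/- libraries and 2.63, 2.61 and 2.63 in the Oasl1-/-Apoe-/- libraries, after thinning to 1000 UMIs. The group means were 3.79 ± 0.133 (SD, n = 2) and 2.62 ± 0.0119 (n = 3), a difference of -1.17. The exact two-sided permutation p over the 10 splits of 5 libraries was 0.1, the smallest this design can give. The difference was -0.94 unthinned and -1.26 at 2000 UMIs. Macrophages with 5 or more of the genes made up 40.1% and 44.1% of the Apoe-/- libraries and 18.0%, 18.5% and 18.9% of the Oasl1-/-Apoe-/- libraries, and those with 0 or 1 made up 16.6% and 19.3% against 33.7%, 32.9% and 34.2%.

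**Figure D2:**
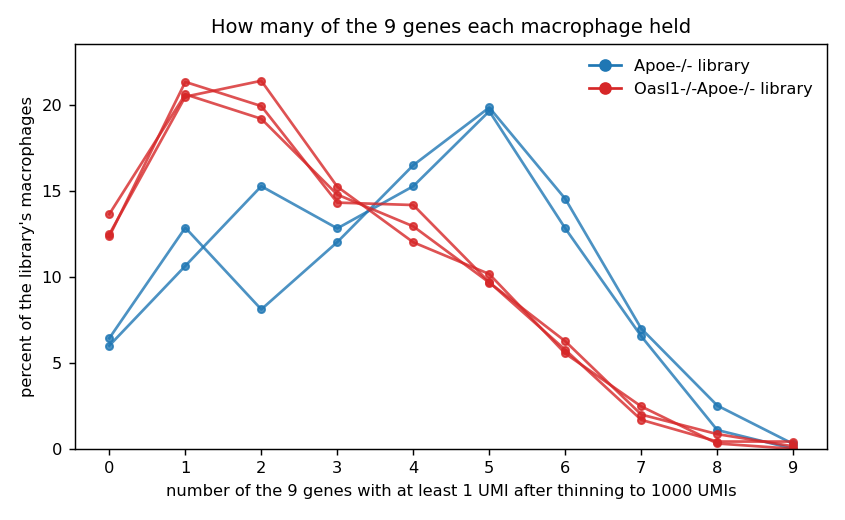
Percent of a library's macrophages (vertical axis) that held at least 1 UMI of 0 to 9 of the genes (horizontal axis) after thinning to 1000 UMIs, 1 line per library. The Apoe-/- lines peak at 5 genes and the Oasl1-/-Apoe-/- lines at 1 or 2.

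The gated macrophages were not uniform, and some genotype differences had opposite signs in different clusters, a contrast that was not itself tested. Cluster 5, led by Gpnmb, Trem2, Lpl, Syngr1 and Fabp5 although the 9 genes were left out of the clustering, held 422 Apoe-/- and 709 Oasl1-/-Apoe-/- gated cells. Cluster 6, led by the chemokine genes Ccl12 and Ccl8 and by Cd72, held 123 and 953. In cluster 5 alone 5 of the 9 genes were called (5.76% of 7814 genes tested there), 4 lower and Spp1 higher. In cluster 6 alone 3 were called (5.18% of 7870), all 3 higher.

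Fabp5 in cluster 5 was at 54.6 and 77.7 CP10K in the Apoe-/- libraries and 24.5, 24.6 and 28.4 in the Oasl1-/-Apoe-/- libraries (log2 difference -1.34 ± 0.10, adjusted p = 3.2e-09). Fabp4 there was at 3.67 and 5.87 against 0.928, 1.4 and 1.4 (-1.88 ± 0.16, adjusted p = 5.2e-08), and Gpnmb at 22.7 and 26.2 against 14.6, 13.7 and 17.5 (-0.68 ± 0.09, adjusted p = 1.6e-05). Abca1 fell by 0.40 on the log2 scale (adjusted p = 0.022). Spp1, which was lower over all macrophages, was higher within cluster 5, at 88.8 and 74.6 against 97.8, 94.1 and 102 (0.27 ± 0.06, adjusted p = 0.013). Trem2 was at 19.1 and 17.7 against 19.2, 19.1 and 18.9 with overlapping groups, a log2 difference of 0.05 ± 0.06 (adjusted p = 0.745), and Lpl differed by -0.13 ± 0.07 (adjusted p = 0.372).

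In cluster 6 the 3 genes that passed, Fabp5, Gpnmb and Plin2, were higher in the Oasl1-/-Apoe-/- libraries. Lpl differed by -0.32 ± 0.13 (adjusted p = 0.214), the sign it had over all macrophages. Fabp5 was at 0.400 and 1.09 CP10K in the Apoe-/- and 5.02, 3.59 and 3.48 in the Oasl1-/-Apoe-/- libraries (2.49 ± 0.35, adjusted p = 0.0071). Gpnmb was at 0.285 and 0.396 against 2.98, 1.62 and 2.19 (2.54 ± 0.25, adjusted p = 0.0019), and Plin2 at 4.09 and 4.59 against 5.75, 5.83 and 5.92 (0.42 ± 0.09, adjusted p = 0.038). These rest on 57 and 66 Apoe-/- cells per library. Median depths in this cluster were 3425 and 4801 UMIs per cell, and the part of depth was not tested. Fabp4 was at 0 in the cluster 6 cells of both Apoe-/- libraries and at 0.0498, 0.168 and 0.252 in the Oasl1-/-Apoe-/- libraries.

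The gated cells of 2 unnamed clusters were not tested and their levels followed cluster 5 for the fatty acid carriers. In cluster 9, shallow cells with median depths of 1166.5 and 1367 UMIs, Fabp5 was at 67.6 and 50.3 CP10K against 34.8, 33.5 and 32.5 and Fabp4 at 4.23 and 3.30 against 1.96, 1.44 and 2.30. In cluster 17, which was also marked by all 6 cycling markers, Fabp5 was at 14.4 and 15.2 against 5.17, 3.20 and 3.95. The Apoe-/- values of cluster 17 rest on 14 and 13 gated cells.

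**Figure D3:**
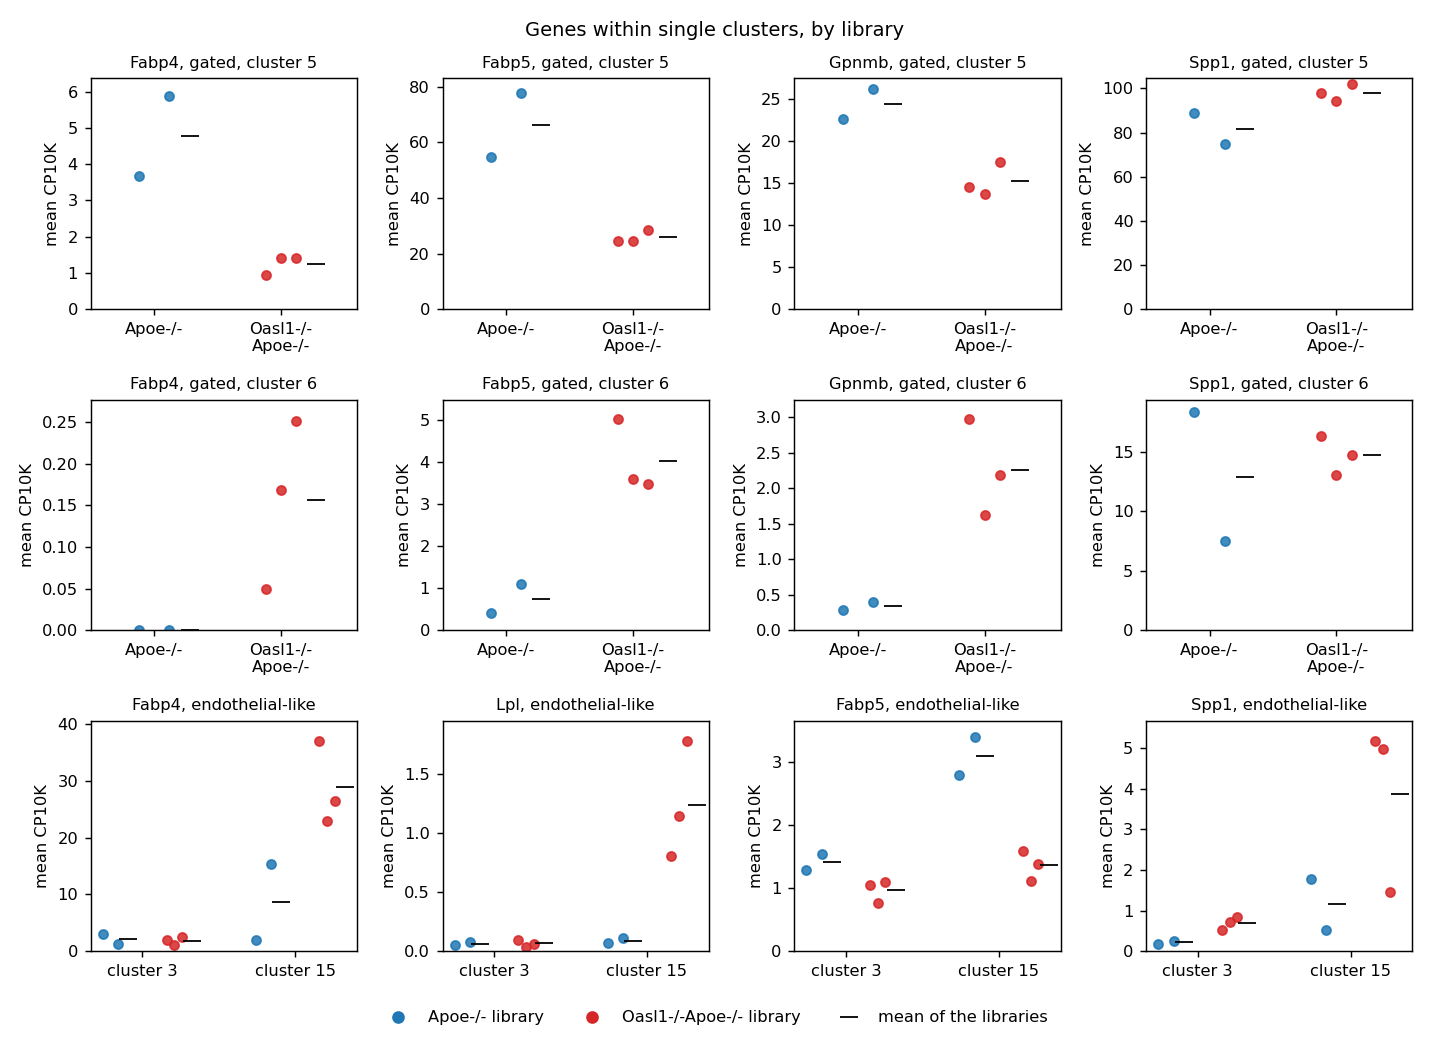
Mean CP10K (vertical axes, from 0) within single clusters, 1 point per library and a bar at the mean of the libraries, for gated macrophages of cluster 5 and of cluster 6 and for endothelial-like clusters 3 and 15. Fabp5 is lower in Oasl1-/-Apoe-/- points in cluster 5 (24.5 to 28.4 against 54.6 and 77.7) and higher in cluster 6 (3.48 to 5.02 against 0.400 and 1.09), and endothelial Fabp4 and Lpl are raised in cluster 15 and not in cluster 3.

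Macrophages were also split by detection of Rsad2 or Cxcl10, 2 interferon-induced genes. At least 1 UMI of either was found in 734 macrophages, 35 and 51 in the Apoe-/- libraries and 208, 201 and 239 in the Oasl1-/-Apoe-/- libraries, and 2262 had neither. Of 10 other interferon genes, used to check the split, all 10 were higher in cells with a UMI and their median log2 difference was 2.19. Of the 9 lipid genes, 3 were lower in cells with Rsad2 or Cxcl10 than in cells without, in a fit with the library as a block (0.516% of the 8141 genes tested were lower). These were Spp1, Trem2 and Lpl. Centring moved the share of lower genes among all calls of the split from 16.9% to 34.3%, with the same 3 called.

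Spp1 was at 56.1 and 27.0 CP10K in Apoe-/- cells with Rsad2 or Cxcl10 and 72.3 and 66.9 in those without. In the Oasl1-/-Apoe-/- libraries it was at 33.3, 29.8 and 29.8 with and 66.0, 63.4 and 67.1 without. It was lower in 5 of 5 libraries, by 0.98 ± 0.10 on the log2 scale (adjusted p = 0.00016), and this call held under every alternative run. Trem2 was at 11.1 and 13.7 with and 15.5 and 14.4 without in the Apoe-/- libraries, and at 10.7, 9.42 and 9.01 with and 12, 12.8 and 12.6 without in the others. It fell by 0.33 ± 0.07 (adjusted p = 0.019), again in 5 of 5 libraries. Lpl fell by 0.36 ± 0.08 (adjusted p = 0.037) and was lower in 4 of 5 libraries.

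The calls of Trem2 and Lpl were lost on leaving out either the second or the third Oasl1-/-Apoe-/- library, where the adjusted p was 0.1 and 0.12 for Trem2 and 0.14 and 0.17 for Lpl. Lpl was also lost without either Apoe-/- library (adjusted p = 0.081 and 0.12). Cells with a UMI were deeper, with median depths of 5613 and 6230 UMIs against 5301 and 5035 in cells without, and depth raises the chance of a UMI. Among cells of at least 3000 UMIs, Spp1 and Lpl kept the call and Trem2 had an adjusted p of 0.08. With the levels measured after thinning every cell to 1000 UMIs, Spp1 kept the call, Trem2 and Lpl lost it (adjusted p = 0.064 and 0.2) and Gpnmb gained it (adjusted p = 0.039). Fabp5 was lower in 5 of 5 libraries with a log2 difference of -0.68 ± 0.17 (adjusted p = 0.059), Gpnmb differed by -0.60 ± 0.17 (adjusted p = 0.09), and Abca1, Abcg1 and Plin2 differed by 0.01, 0.01 and -0.11 with adjusted p from 0.507 to 0.989.

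Within the macrophages that lacked Rsad2 and Cxcl10, 7 of the 9 genes were lower in the Oasl1-/-Apoe-/- libraries (3.2% of 8065 genes tested were lower). Fabp5 was at 49.6 and 55.8 CP10K against 17.1, 15.5 and 17.1 (-1.66 ± 0.06, adjusted p = 7.7e-12), Fabp4 at 3.35 and 4.08 against 0.706, 1.62 and 1.15 (-1.71 ± 0.21, adjusted p = 3.2e-05) and Gpnmb at 20.3 and 20.6 against 9.14, 9.10 and 9.79 (-1.12 ± 0.06, adjusted p = 1.9e-09). These were close in size to the differences over all macrophages. Spp1 was at 72.3 and 66.9 against 66.0, 63.4 and 67.1 in these cells, with overlapping groups and a difference of -0.09 ± 0.05 (adjusted p = 0.329). Centring moved the share of lower calls over all genes from 35.5% to 52.1% there.

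Within the macrophages that held Rsad2 or Cxcl10, 1.61% of 8152 genes were called and none of the 9, by limma or by voom, with 5 of the 9 at an unadjusted p under 0.05. The 2 Apoe-/- libraries were far apart here. Fabp5 was at 13.7 and 46.8 CP10K in them, from 35 and 51 cells, and at 13.1, 12.1 and 11.6 in the Oasl1-/-Apoe-/- libraries. Gpnmb was at 6.33 and 15.8 against 9.19, 6.18 and 7.30. Without the first Apoe-/- library 7 of the 9 were called, and without the second only Spp1 was.

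The genotype differences of the 9 genes were not shown to differ between the macrophages with and without. A test of the difference of differences called 0 of 8141 genes (0%), with 872 genes, 1 of them among the 9 (Gpnmb, 0.70 with a 95% interval of 0.01 to 1.39), at an unadjusted p under 0.05. Limma voom called 6 genes, none of the 9. Without the second Apoe-/- library, Fabp4, Fabp5, Gpnmb and Spp1 passed.

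**Figure D4:**
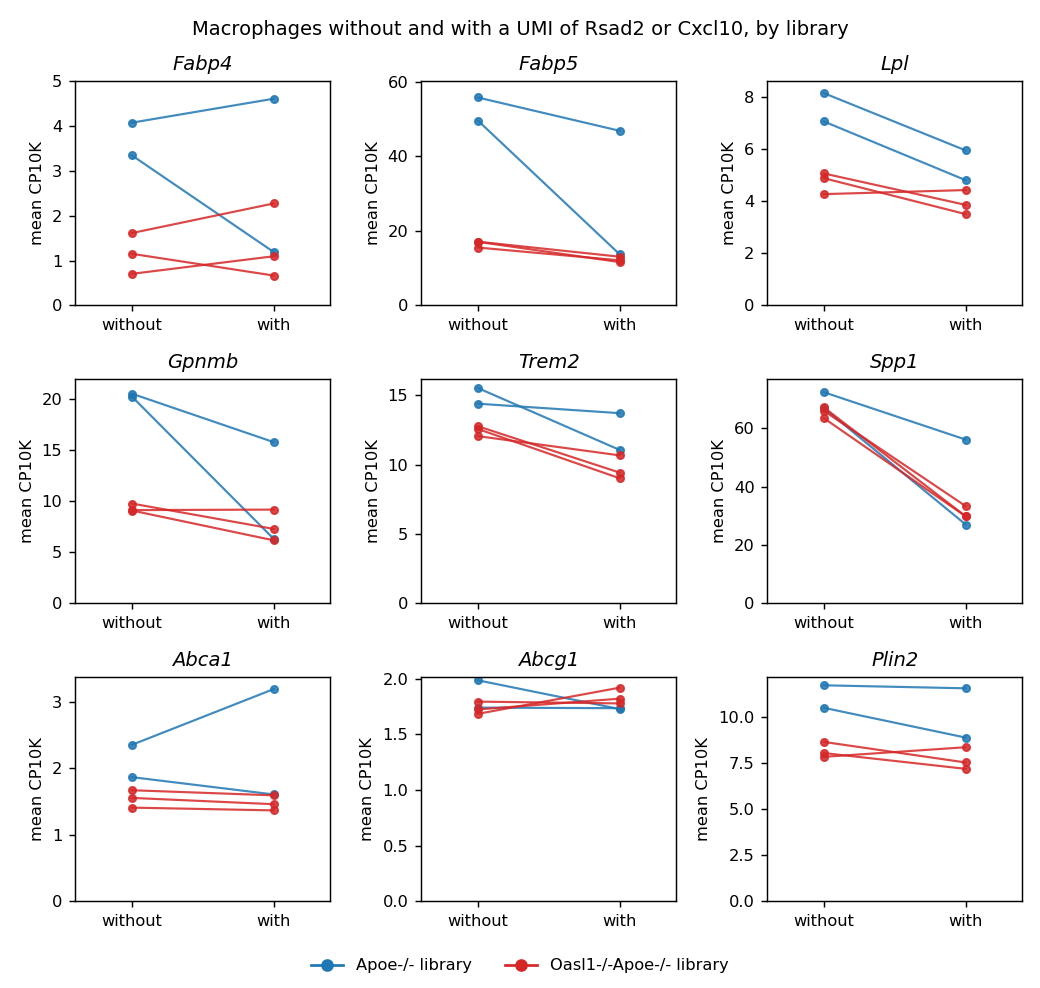
Mean CP10K (vertical axes, from 0) of each gene in macrophages without and with a UMI of Rsad2 or Cxcl10, with 1 line per library. Spp1 is lower with a UMI in all 5 libraries, and Fabp5 drops from 49.6 to 13.7 in the first Apoe-/- library and from 55.8 to 46.8 in the second.

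Other genes of the pathway were read from 6 lists of 74 genes, 65 of which were tested in macrophages: 3 were higher and 23 lower in the Oasl1-/-Apoe-/- libraries, beside 8.12% higher and 4.95% lower over all genes tested. Of 14 lysosome and lipid hydrolysis genes all were tested, 8 fell and 1 rose. The proteases Ctsl (-1.05 ± 0.06, adjusted p = 2.8e-08) and Ctsd (-0.76 ± 0.05, adjusted p = 1.1e-07) and the sphingolipid activator precursor Psap (-0.56 ± 0.04, adjusted p = 1.3e-06) fell the most, with Ctsl at 24.8 ± 1.68 CP10K against 12 ± 0.140 (SD, n = 2 and 3). The median of this list was -0.39, against 0.0461 over all genes tested. Of 8 lipid uptake genes tested, 4 fell and 1 rose. The lipoprotein receptor Lrp1 and the scavenger receptor Cd36 fell by 0.47 and 0.39, and Axl, a receptor for dying cells, rose by 0.54 (adjusted p = 0.0011).

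Of 12 esterification and droplet genes tested, 2 fell and 1 rose. These were the lipase inhibitor Hilpda (-0.98 ± 0.08, adjusted p = 1.3e-06), the monoglyceride lipase Mgll (-0.89 ± 0.24, adjusted p = 0.025) and the acyl-CoA synthetase Acsl1, which rose by 0.67 ± 0.12 (adjusted p = 0.0013). Of 10 genes of liver X receptors and sterol efflux tested, 4 fell and none rose, with the desaturase Scd2 (-0.80), the receptor Nr1h3 (-0.56) and the phospholipid enzyme Lpcat3 (-0.52) the largest. Of 9 fatty acid use genes only Hadha, of mitochondrial fatty acid oxidation, passed (-0.50, adjusted p = 0.031). Of 12 Trem2 partner and lesion genes 4 fell, the largest being the proton pump subunit Atp6v0d2 (-1.18 ± 0.10), Syngr1 (-0.72) and the elastase Mmp12 (-0.38).

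In the split by Rsad2 or Cxcl10, 11 of 64 tested genes of the 6 lists were lower in cells with a UMI and 2 higher, beside 0.516% lower and 2.53% higher over all genes tested, so the number higher was near that share. The lysosome list gave 6 of 14, with Ctsl (-1.39 ± 0.11, adjusted p = 2.3e-05), Ctsd (-0.56) and the lysosomal membrane gene Cd63 (-0.38) the largest, and the Trem2 partner list gave 4 of 12, with Atp6v0d2 (-1.31 ± 0.24), Mmp12 (-0.83) and Syngr1 (-0.51) the largest. Pltp, the phospholipid transfer protein, fell by 0.35. Axl and Acsl1, the genes of these lists that were higher here, differed by 0.40 and 0.56.

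Over gated macrophages the 9 genes varied together to different degrees. Within libraries, Fabp5 and Gpnmb had the highest Pearson correlation of deposited values over cells (0.733 to 0.771 across the 5 libraries), and Gpnmb with Spp1 gave 0.459 to 0.534. Abcg1 with Spp1 gave 0.0509 to 0.0954. These are descriptions over cells of the same libraries, which share depth, and each gene's own correlation with cell depth lay between 0.0858 and 0.487. The genes most alike to the mean of the 9, by the lowest of the within-library correlations, were Ctsd (0.716 to 0.759), Ctsl (0.611 to 0.658), Ctsb (0.570 to 0.665), Lgals3 (0.563 to 0.606), Syngr1 (0.545 to 0.648), Vat1 (0.545 to 0.587), Atp6v0d2 (0.525 to 0.593) and Ftl1 (0.523 to 0.606). All 8 were lower in the Oasl1-/-Apoe-/- libraries, where 4.95% of all genes tested were. They were picked for varying with the 9 genes over these same macrophages, so their fall is not independent of that of the 9.

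In monocyte-like cells (176 and 255 cells) 3 of the 9 genes were called, where 3.15% of 7622 genes were. Fabp5 and Gpnmb fell as in macrophages, and Spp1 rose. Fabp5 was at 25.7 and 28.2 CP10K in the Apoe-/- libraries and 11.9, 7.06 and 8.18 in the Oasl1-/-Apoe-/- libraries (-1.61 ± 0.16, adjusted p = 1.9e-06), and Gpnmb at 4.56 and 4.56 against 1.61, 2.36 and 1.39 (-1.36 ± 0.21, adjusted p = 0.00033, but 0.12 with cells thinned to 1000 UMIs). Spp1 was at 15.3 and 26.3 against 77.9, 82.4 and 67.3, a log2 difference of 1.91 ± 0.15 (adjusted p = 1.4e-07), and the groups were far apart. The thinned share of monocyte-like cells with a Spp1 UMI was 17.5% and 38.9% (unthinned 31.2% and 49.0%, median depths 3529 and 3985). Fabp4, at 2.77 and 1.65 against 0.773, 1.22 and 1.47, had an adjusted p of 0.083. Beside these values, the 10 monocyte markers summed to 38.0 to 45.0 CP10K in the Apoe-/- and 70.4 to 79.2 in the Oasl1-/-Apoe-/- libraries (2 of 10 rose), the smooth muscle markers to 25.2 to 34.2 and 3.83 to 8.77 (6 of 8 tested fell) and the erythroid markers to 45.5 to 118 and 0.540 to 17.6 (5 of 5 fell). Their part was not tested. Of the 6 lipid lists, 4 of 66 genes tested rose in monocyte-like cells and 1 fell. Over all genes tested 1.64% rose and 1.51% fell, so the number that fell was near that share.

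Spp1 was more abundant over all cells of the Oasl1-/-Apoe-/- libraries, at 25.8, 26.7 and 25.2 CP10K against 11.8 and 10.3. In NK/T-like cells it was at 0.150 and 0.421 in the Apoe-/- and 2.4, 1.31 and 2.35 in the Oasl1-/-Apoe-/- libraries. Whether these cells make Spp1 themselves was not tested. In NK/T-like and B-like cells together the share with a Spp1 UMI was 2.21% and 8.32% thinned and 4.08% and 16.4% unthinned. The monocyte-like levels and shares lay above these.

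In endothelial-like cells (813 and 735 cells) the pattern was the reverse of that in macrophages for the genes of fatty acid supply, Fabp4 and Lpl. Of the 9 genes 4 were called, where 3.83% of 9547 genes were, 3 higher and 1 lower. Fabp4 was at 2.95 and 2.78 CP10K in the Apoe-/- libraries and 9.97, 6.92 and 8.12 in the Oasl1-/-Apoe-/- libraries (1.51 ± 0.11, adjusted p = 3.9e-15), and Lpl at 0.0511 and 0.0832 against 0.260, 0.333 and 0.459 (1.76 ± 0.27, adjusted p = 8.4e-06). Neither overlapped. The thinned share with a Fabp4 UMI was 7.11% and 15.6%, above the 0.738% and 0.756% of NK/T-like and B-like cells, and the unthinned share was 12.9% and 22.4%. For Lpl the share was 0.888% and 2.38% thinned and 1.97% and 5.85% unthinned. Of the NK/T-like and B-like cells, 0 of 294 held an Lpl UMI in the Apoe-/- libraries (upper 95% Wilson bound 1.29%) and 0.865% did in the Oasl1-/-Apoe-/- libraries (0.189% thinned).

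Spp1 in endothelial-like cells was at 0.365 and 0.274 CP10K against 1.59, 1.86 and 0.979 (2.01 ± 0.19, adjusted p = 3.2e-11). The share of cells with a Spp1 UMI, 3.43% and 7.85% thinned (7.01% and 23.5% unthinned, median depths 2855 and 3513), was above that of NK/T-like and B-like cells in the Apoe-/- libraries, and in the Oasl1-/-Apoe-/- libraries above it unthinned and below it thinned. No change in how many endothelial-like cells hold Spp1 is read from these shares. Fabp5 fell by 0.57 ± 0.15 (adjusted p = 0.018). This call was lost without either Apoe-/- library, without the second Oasl1-/-Apoe-/- library, thinned, with no filter and with the mean of the deposited values. It was also lost in cluster 3 alone (adjusted p = 0.129) and kept in cluster 15 alone (0.011). The Lpl call was lost thinned. In these cells the 10 macrophage markers summed to 0.506 to 0.698 CP10K in the Apoe-/- and 0.930 to 1.87 in the Oasl1-/-Apoe-/- libraries (2 of 5 tested rose), and the 10 smooth muscle markers to 27.5 to 38.2 and 12.8 to 23.8 (5 of 9 tested fell). The fibroblast markers summed to 11 to 11.6 and 16.4 to 24.8 (4 of 8 tested rose) and the erythroid markers to 3.77 to 35.0 and 0.382 to 0.604 (4 of 4 tested fell). The part of cells or free RNA of other types was not tested. Of the 6 lipid lists, 6 of 57 genes tested rose in endothelial-like cells and none fell, beside 2.59% higher and 1.25% lower over all genes tested.

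The endothelial difference in Fabp4 and Lpl lay in cluster 15, led by Nts, Ctla2a, Gpihbp1 and Emcn (87 and 178 cells), and was not detected in cluster 3, led by Ptprb and Gkn3 (726 and 557 cells). The difference between the clusters was not tested. In cluster 15, Fabp4 was at 1.96 and 15.3 CP10K in the Apoe-/- and 37.0, 23 and 26.5 in the Oasl1-/-Apoe-/- libraries (2.35 ± 0.44, adjusted p = 0.0024), with the Apoe-/- libraries far from each other. Lpl there was at 0.0672 and 0.113 against 0.804, 1.14 and 1.78 (3.15 ± 0.43, adjusted p = 6.5e-05), and Gpnmb at 0.464 and 0.992 against 0.0305, 0 and 0.103 (-3.10 ± 0.61, adjusted p = 0.0034), the 3 last values being within or below its range of 0.0521 to 0.115 in NK/T-like cells. In all, 5 of the 9 were called in cluster 15 (3.11% of 9661 genes) and 1, Spp1, in cluster 3 (1.5% of 9352). In cluster 3 Fabp4 was at 3.07 and 1.31 against 2.0, 1.08 and 2.60 (-0.17 ± 0.21) and Lpl at 0.0492 and 0.0797 against 0.0994, 0.0394 and 0.0633 (0.02 ± 0.39).

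Gpihbp1, the protein that holds lipoprotein lipase on the capillary wall, was looked at after the values of Lpl were seen. It was listed at 0 in every cell of both Apoe-/- libraries, and at 3.34, 2.27 and 3.73 CP10K in cluster 15 of the Oasl1-/-Apoe-/- libraries. In cluster 3 it was listed at 0 in all 5 libraries. Genes seen in very few cells of a library may have been set to 0 there before deposit, so no size or direction is read from these zeros. Gpihbp1 was among the leading genes of cluster 15.

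Smooth muscle-like cells (5404 and 4149 cells) gave differences at low levels for most of the genes. Trem2 and Abcg1 were under the filter, and of the other 7 genes 4 were called, where 6.58% of 8978 genes were. Fabp4, at 2.93 and 2.97 CP10K against 2.69, 2.61 and 2.46, fell by 0.19 ± 0.05 on the log2 scale (adjusted p = 0.037). This call was lost in 4 of the 5 fits without 1 library (all but that without the first Apoe-/- library, adjusted p = 0.061 to 0.22), thinned (0.31) and in each of the 5 smooth muscle-like clusters alone. Spp1 was at 0.172 and 0.203 against 0.420, 0.856 and 0.497 (1.38 ± 0.17, adjusted p = 1.7e-05), Fabp5 at 0.261 and 0.332 against 0.194, 0.200 and 0.205 (-0.47 ± 0.09, adjusted p = 0.0039) and Gpnmb at 0.0588 and 0.104 against 0.0522, 0.0232 and 0.0452 (-0.54 ± 0.15, adjusted p = 0.031). The shares of smooth muscle-like cells with a UMI of these last 3 genes were at or below those of NK/T-like and B-like cells after thinning, except Gpnmb in the Apoe-/- libraries (0.744% against 0.738%), and no change in these cells is read from them. For Spp1 they were 1.67% and 4.34% thinned and 6.92% and 18.9% unthinned, for Fabp5 2.46% and 2.31% thinned and 11.7% and 9.45% unthinned, and for Gpnmb in the Oasl1-/-Apoe-/- libraries 0.461% thinned and 1.74% unthinned. The Fabp5 mean of smooth muscle-like cells (0.239 CP10K) was below that of B-like cells (6.85) and that of NK/T-like cells (0.462). In smooth muscle-like cells the 10 macrophage markers summed to 0.320 to 0.343 CP10K in the Apoe-/- and 0.600 to 0.677 in the Oasl1-/-Apoe-/- libraries (4 of 5 tested rose), and the erythroid markers to 11.7 to 13.6 and 1.99 to 2.94 (4 of 4 tested fell). Their part was not tested.

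In fibroblast-like cells (251 and 877 cells) 2 of the 9 genes were called, where 3.67% of 9461 genes were. Lpl was at 1.5 and 1.99 CP10K against 1.23, 1.18 and 1.08 (-0.55 ± 0.14, adjusted p = 0.046), and Spp1 at 43.0 and 38.7 against 71.2, 60.8 and 49.1 (0.55 ± 0.12, adjusted p = 0.018). Neither gene's groups overlapped. The Spp1 call was lost without the first or the second Oasl1-/-Apoe-/- library (adjusted p = 0.074 and 0.12), thinned, at Leiden resolution 2, with no filter and with limma voom. The Lpl call was lost without the second Apoe-/- library, without each of the 3 Oasl1-/-Apoe-/- libraries (adjusted p = 0.12, 0.17 and 0.23), thinned (0.75) and when centred on the median gene (0.066). It was also lost at Leiden resolution 2, with no filter, with gated cells kept and with the replicate number as a block. Most fibroblast-like Spp1 lay in cluster 7, at 71.3 and 64.1 against 98.8, 92.5 and 70.9, where it was not called. The erythroid markers in this class summed to 1.75 to 23.7 CP10K in the Apoe-/- and 0.428 to 0.507 in the Oasl1-/-Apoe-/- libraries (4 of 4 tested fell), the smooth muscle markers to 87.0 to 92.1 and 69.1 to 82.9 (2 of 10 fell) and the monocyte markers to 4.99 to 5.41 and 8.31 to 10.3 (2 of 5 tested rose and 1 fell). Their part was not tested.

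In dendritic-like cells (148 and 256 cells) Lpl, Gpnmb and Trem2 were under the filter and none of the other 6 genes passed, where 1.79% of 7583 genes did. Of the 6, 3 had an unadjusted p under 0.05 and limma voom called 1. Abcg1 was at 1.27 and 1.16 CP10K against 0.653, 0.622 and 0.681 with no overlap (-0.85 ± 0.24, 95% interval -1.36 to -0.34, adjusted p = 0.111), Fabp5 at 14.3 and 10.9 against 6.75, 9.10 and 10.1 (-0.54 ± 0.16, adjusted p = 0.131) and Spp1 at 0.461 and 0.270 against 2.0, 0.853 and 0.574 (1.38 ± 0.39, adjusted p = 0.105). The monocyte markers there summed to 11.2 to 12.5 and 29.2 to 34.1 (2 of 4 tested rose), whose part was not tested.

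**Figure D5:**
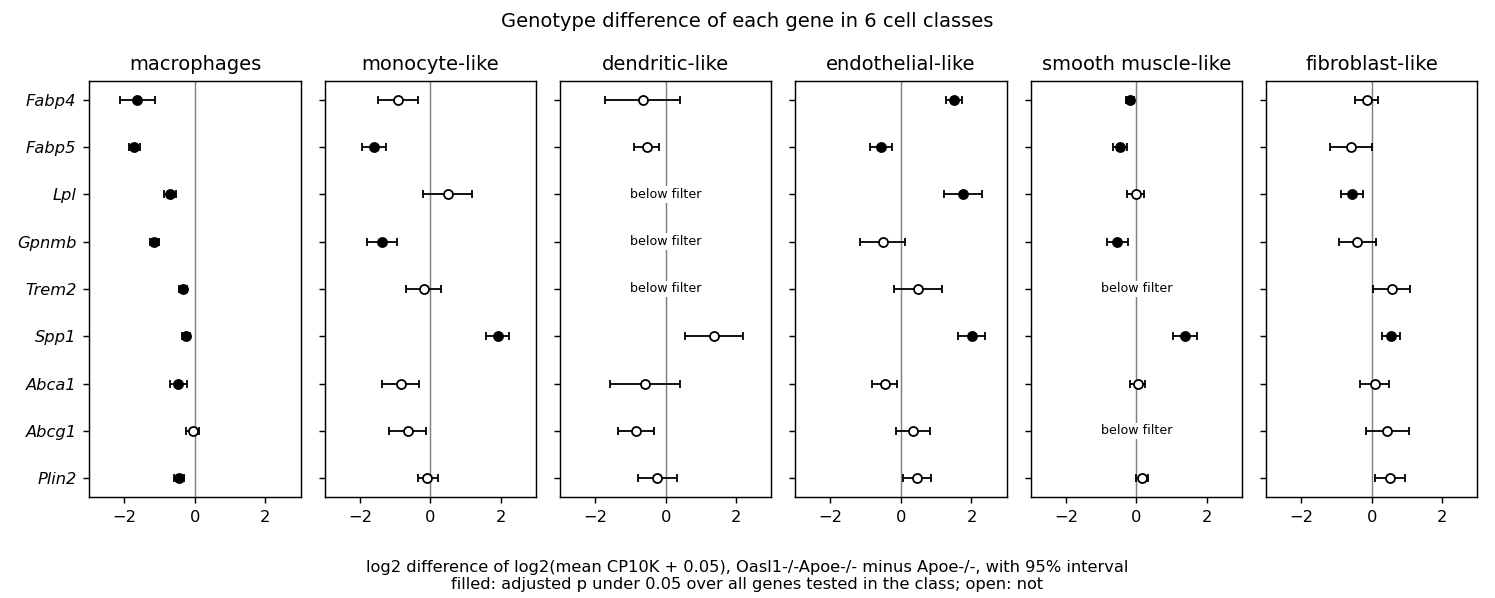
Log2 difference (Oasl1-/-Apoe-/- minus Apoe-/-, horizontal axes) of each of the 9 genes in 6 cell classes, with 95% intervals, filled where the adjusted p was under 0.05. The macrophage panel lies at or left of 0, whereas Fabp4 and Lpl lie right of 0 in endothelial-like cells and Spp1 right of 0 in the 5 other classes.

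The difference between classes was tested directly, as each class's genotype difference minus that of macrophages in the same libraries. In endothelial-like cells 6 of the 9 genes passed (2.98% of 9527 genes tested), all higher relative to macrophages: Fabp4 by 3.14 ± 0.29 on the log2 scale (adjusted p = 2.1e-06), Lpl by 2.46 ± 0.20 (adjusted p = 4.5e-07), Spp1 by 2.27 ± 0.17 (adjusted p = 2.2e-07), Fabp5 by 1.15, Plin2 by 0.91 and Trem2 by 0.82. In monocyte-like cells 2 passed (1.52% of 7985), Spp1 by 2.18 ± 0.17 (adjusted p = 2.8e-08) and Lpl by 1.2 ± 0.26 (adjusted p = 0.013). Fabp5 and Gpnmb did not, with intervals of -0.18 to 0.41 and -0.62 to 0.19. The Lpl call was lost without either Apoe-/- library and without the first Oasl1-/-Apoe-/- library. Its own difference in monocyte-like cells, 0.49, was not called (adjusted p = 0.594). In dendritic-like cells 2 passed (0.669% of 8069), Spp1 by 1.64 and Fabp5 by 1.18.

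In smooth muscle-like cells 6 passed (8.78% of 9257) and in fibroblast-like cells 5 (3.12% of 9436), all with a positive value. A gene that is near the offset of 0.05 CP10K in a class cannot fall there as it did in macrophages, so a positive value for it mostly restates the macrophage difference. That holds for Gpnmb in smooth muscle-like cells. Lpl in smooth muscle-like cells was also low (mean 0.0882 CP10K, 0.0737 to 0.106). Its own difference there, -0.02, was not called (adjusted p = 0.942), so its positive value restates the macrophage difference. Trem2 in endothelial-like cells was also near the offset (mean 0.0575 CP10K, 0.0199 to 0.0869). Its own difference there, 0.48, was not called (adjusted p = 0.623). Trem2 and Abcg1 in smooth muscle-like cells and Lpl, Gpnmb and Trem2 in dendritic-like cells were under the filter in the class itself and entered only through macrophages, so nothing is read from them here. Spp1 passed in each of the 5 classes, from 0.81 in fibroblast-like to 2.27 in endothelial-like cells. Its mean in endothelial-, dendritic- and smooth muscle-like cells (1.01, 0.832 and 0.430 CP10K) was below that in NK/T-like cells (1.33). In NK/T-like cells Spp1 was also higher in the Oasl1-/-Apoe-/- libraries. Whether those classes make Spp1 themselves was not tested. Since each of the comparisons with macrophages subtracts the same macrophage difference, they are not independent of one another.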

How the data were processed

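The labels name 5 aortic arch libraries, 2 Apoe-/- and 3 Oasl1-/-Apoe-/-. The authors aligned reads to mm10 with Cell Ranger 3.1.0 and filtered cells in Seurat 4.0.3 and DoubletFinder, keeping more than 200 genes and less than 10% mitochondrial reads, and deposited the natural log of 1 plus UMIs per 10000. Here UMIs were recovered from the deposited values (100% whole, within 0.01). A gene listed at 0 in all cells of a library is given no limit. The authors' test treated cells as replicates and was not used.

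The 9 genes and all lists were chosen with earlier results of these data known. Cells were clustered on 2000 variable genes without the 9 genes, Rsad2 and Cxcl10 (12 components, Leiden resolution 1, leidenalg 0.10.2) and named "-like" from at least 3 of the listed markers; no further doublet caller was run. Levels were log2(mean CP10K + 0.05) per library and class, for genes averaging at least 0.05 CP10K, in classes with at least 20 cells in every library (10 in each part of the split). Genotypes were compared by limma 3.58.1 (R 4.3.3, trend), Benjamini-Hochberg over all genes tested, at 0.05. A gene of the lists was named where it was among the 3 largest past the threshold, and the 8 genes most alike by their correlation with the mean of the 9. Code was tested on simulated data. The labels list the libraries as separate samples, and whether each had its own pool of mice is not known. The p-values thus measure the spread between libraries, which may be technical. Alternatives covered normalization, filter, pseudocount, gate, clustering, thinning, limma voom and leaving out each library. Fits within 1 cluster, in cells of at least 3000 UMIs, and between classes were added after seeing the data.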

Additional observations from a re-analysis of the deposited data

Results flagged for a closer look

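Genotype differences were compared between cell classes by a test of the difference itself, each class minus macrophages (log2, limma, adjusted over all genes tested). The values that passed are given here with no explanation weighed. In endothelial-like cells these were Fabp4 at 3.14, Lpl at 2.46, Spp1 at 2.27, Fabp5 at 1.15, Plin2 at 0.91 and Trem2 at 0.82. In monocyte-like cells they were Spp1 at 2.18 and Lpl at 1.2, and in dendritic-like cells Spp1 at 1.64 and Fabp5 at 1.18. In smooth muscle-like cells they were Spp1 at 1.64, Fabp4 at 1.44, Fabp5 at 1.25, Lpl at 0.68, Plin2 at 0.62 and Gpnmb at 0.61. In fibroblast-like cells they were Fabp4 at 1.49, Plin2 at 0.97, Trem2 at 0.91, Spp1 at 0.81 and Gpnmb at 0.74. All are positive, which for a gene that fell in macrophages can be a smaller fall in the other class or a rise there, and for a gene near the offset of 0.05 CP10K in that class, such as Gpnmb in smooth muscle-like cells, mostly restates the macrophage fall. Spp1 had its own difference past the threshold in 4 of the 5 classes and Fabp4 and Lpl in endothelial-like cells. Lpl did not in monocyte-like cells (0.49, adjusted p = 0.594) or in smooth muscle-like cells (-0.02, adjusted p = 0.942), where its mean was 0.0882 CP10K. Trem2 was near the offset of 0.05 CP10K in endothelial-like cells, where its own difference was not called (adjusted p = 0.623). Several of these levels were near or below those of NK/T-like and B-like cells, whose part was not tested. Spp1 in endothelial-, dendritic- and smooth muscle-like cells was among them, with means below that of NK/T-like cells.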

How the results depend on the processing

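Of the values of single named genes under the alternatives, 2008 kept their side of the threshold, 51 gained and 225 lost it in the same direction, and 25 changed sign with a call before or after. In macrophages the number of the 9 genes past the threshold was 7 to 8 on leaving out 1 library, 7 thinned or by voom, 6 with no filter, 5 in cluster 5 alone and 3 in cluster 6 alone. In dendritic-like cells it was 1 with a filter at 0.5 CP10K, with no filter and with limma voom, and 0 to 0 on leaving out 1 library. In endothelial-like cells it was 2 with cells thinned to 1000 UMIs and 1 in cluster 3 alone (3 to 4 without 1 library). In fibroblast-like cells it was 0 at Leiden resolution 2, thinned or with no filter, and 1 when centred on the median gene, with gated cells kept, with voom and in cluster 7 or 14 alone (0 to 3 without 1 library). In smooth muscle-like cells it was 1 thinned, with a filter at 0.5, with no filter and in clusters 0, 2 or 4 alone, 2 with the mean of the deposited values and in cluster 1 alone, and 0 in cluster 11 alone (1 to 4 without 1 library). In monocyte-like cells it was 3 to 4 without 1 library and 2 thinned (Fabp5 and Spp1).

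In the Rsad2 or Cxcl10 split the number was 5 with detection after thinning, 2 with levels after thinning (Spp1 and Gpnmb) and 1 with no filter or without the library block (1 to 4 without 1 library). Among macrophages with Rsad2 or Cxcl10 it was 1 with the mean of the deposited values (0 to 7 without 1 library), among those without it was 5 to 7, and for the difference of differences 0 to 4. Minus macrophages it was 0 to 2 in dendritic-like, 1 to 2 in monocyte-like, 5 to 6 in endothelial-like, 5 to 7 in smooth muscle-like and 2 to 5 in fibroblast-like cells without 1 library. The Spp1 difference for dendritic-like cells was lost without either Apoe-/- library, and the Fabp5 difference without the second Apoe-/- library. The Lpl difference for monocyte-like cells was lost without either Apoe-/- library and without the first Oasl1-/-Apoe-/- library. The number of the 9 genes per macrophage differed by -1.27 to -1.08 without 1 library.

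For the lists, centring gave 3 fatty acid use and 5 esterification genes in macrophages, and 0 esterification and 0 uptake genes in the split, and a pseudocount of 0.5 gave 2 fatty acid use genes. Without 1 library the counts in macrophages were 2 to 5 for liver X receptors, 0 to 1 for fatty acid use, 3 to 5 for Trem2 partners, 2 to 6 for esterification, 3 to 5 for uptake, 8 to 11 for lysosome and 9 to 10 for interferon genes. In the split they were 0 to 1, 0 to 0, 2 to 5, 0 to 1, 0 to 1, 4 to 7 and 10 to 10.

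The log2 differences that changed sign did so mainly within single clusters. In cluster 6 alone they were 0.05 for Abca1, -0.28 for Acsl1, 0.93 for Atp6v0d2, 0.50 for Ctsb, 0.11 for Ctsd, 0.27 for Ctsl, 1.90 for Fabp4, 2.49 for Fabp5, 0.09 for Ftl1, 2.54 for Gpnmb, 0.51 for Lgals3, 0.52 for Nr1h3, 0.42 for Plin2, 0.52 for Psap, 0.32 for Spp1, 0.95 for Syngr1, 0.07 for Trem2 and 0.16 for Vat1. In cluster 5 alone they were 0.20 for Cd36, 0.00 for Ftl1, 0.17 for Mmp12, 0.27 for Spp1 and 0.05 for Trem2. Fabp4 was at -0.17 in endothelial-like cluster 3 alone, and the Spp1 difference of differences was 0.23 without the first Apoe-/- library and -0.71 without the second. The cause was not tested.

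Over all genes, calls in macrophages numbered 1061, with 486 after thinning and 1502 with the mean of the deposited values. They numbered 726 among macrophages without Rsad2 or Cxcl10 (292 thinned, 1078 with detection after thinning), 131 among those with (15 thinned, 2351 without the second Apoe-/- library), 248 in the split (69 with no library block, 536 with the mean of the deposited values) and 0 for the difference of differences (1217 without the second Apoe-/- library). In the other classes they numbered 240 in monocyte-like (47 thinned, 328 by voom), 136 in dendritic-like (6 thinned, 154 by voom), 366 in endothelial-like (126 thinned, 522 by voom), 591 in smooth muscle-like (198 thinned, 819 without the first Apoe-/- library) and 347 in fibroblast-like cells (39 thinned, 841 without the first Apoe-/- library). Thinning leaves fewer UMIs per cell.

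The replicate numbers were not shown to pair the libraries: deviations of libraries with the same number correlated at 0.0211 and -0.0145 over 2 shared numbers. A fit with the replicate number as a block called 8 of the 9 genes in macrophages, 7 in those without and 0 in those with Rsad2 or Cxcl10, 4 in endothelial-like, 3 in smooth muscle-like, 5 in monocyte-like, 1 in dendritic-like and 1 in fibroblast-like cells.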
